A study of Mus musculus with 139 samples.

Results

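The RNP mesh is the insoluble material of the nucleus that remains as a pellet after DNase I digestion and washes with urea, NP40 detergent and high salt. Polyadenylated RNA of this pellet was compared between mouse embryonic stem cells treated for 4 h with the auxin indole-3-acetic acid (IAA) and untreated cells at 0 h. The 4 libraries compared, 2 per time, are part of 139 in the series, and 12725 of the 52885 genes in the table were tested because they reached 1 FPKM in at least 2 of the 6 RNP mesh libraries. FPKM is a number of fragments scaled to transcript length and library size.

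All cells were of the line AID-FBEXOSC2, in which EXOSC2, a subunit of the RNA exosome, carries an auxin-inducible degron, so the untreated cells carry the tagged protein too. The 4 h group received 0.5 mM IAA, and the 0 h group none. Cells were grown on gelatin in serum medium with LIF. IAA-treated cells that lack the degron were not used here, so loss of EXOSC2 and exposure to IAA cannot be told apart.

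The RNA exosome is a ring of subunits with attached ribonucleases that degrades or trims RNA from the 3' end. In the nucleus it removes short-lived noncoding transcripts, such as those made upstream of promoters and at enhancers, and matures small nucleolar RNAs (snoRNAs), which guide chemical modification of ribosomal RNA. Polyadenylated RNA found in nuclear pellets includes retained noncoding RNAs such as Neat1 as well as messenger RNAs that have not yet left for the cytoplasm.

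The 2 libraries of a time resembled each other most: across genes, Pearson's r of log2(FPKM + 1) was 0.979 between the 4 h libraries and 0.967 between the 0 h libraries, against 0.909 to 0.936 between the times. The labels do not say whether replicates came from separate cultures, so p-values measure only the spread between these libraries, which may be technical. Read depth is unknown, since the table holds no counts. A different short RNA led the summed FPKM of each library. Mir6236 took 19.3% in 4 h replicate 1 and Gm26205 10.6% in 4 h replicate 2, whereas Gm25117 took 4.61% in 0 h replicate 1 and Snord49b 42.2% in 0 h replicate 2. Without short RNAs, FPKM summed to 254859 and 262697 in the 4 h libraries, against 302994 and 298828 in the 0 h libraries. The noncoding gene Gm42418 took 5.20% and 0.162% in the 4 h libraries, against 0.185% and 1.04% in the 0 h libraries, so 4 h replicate 1 stood apart in this as well. The part of these differences in the results was not tested beyond the rescaled fits given below. Markers of embryonic stem cells were present in every library, and their 8 members summed to 931 and 1072 FPKM at 4 h, against 1641 and 1598 FPKM at 0 h. By limma 2 of them were lower, Zfp42 and Sox2, and 0 higher (5 and 0 at an unadjusted p under 0.05). Of all genes 19.1% were lower and 5.49% higher. Rescaling the libraries, described below, left 1 of these markers lower and 0 higher. Pou5f1 had 165 and 192 FPKM at 4 h and 269 and 262 FPKM at 0 h. Of the 8 fibroblast markers, Fn1 was at 1436 and 1447 FPKM at 4 h and 1260 and 897 FPKM at 0 h, while Col3a1 and Postn were at 0 in all 4 libraries.

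Falls outnumbered rises in the mesh at 4 h. By limma's moderated test on log2(FPKM + 1) with Benjamini-Hochberg adjustment over all genes tested, 699 genes (5.49%) were higher at 4 h and 2426 (19.1%) were lower, at an adjusted p under 0.05. Of these, 374 rises and 1088 falls exceeded 2-fold on that scale. The median difference of all genes was -0.20. Both 4 h libraries lay above both 0 h libraries for 2536 genes (19.9%), and below them for 5797 (45.6%). When each library was rescaled by the median ratio of its genes, which moved that median by over 0.1 to 0.04, 1518 genes were higher and 1153 lower. The split between rises and falls therefore depends on the scaling. The calls also depend on having both 4 h libraries. Without 4 h replicate 1, 14 genes were called higher and 10 lower, without 4 h replicate 2 the counts were 141 and 419, and without 0 h replicate 2 they were 370 and 1205. Of the 96 called genes that the naming rule gave, 12 stayed called without 4 h replicate 1, and none changed sign under any alternative. These 12 were Prrg4, Tsix, Ddit4l, Plk2, Gm37795, AC158987.1, Hist1h4k, Sap25, Chac1, Snhg5, Nupr1 and H2-Ke6.

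Exosc2 itself, the gene whose protein carries the degron, had 2.65 and 3.35 FPKM at 4 h, against 8.45 and 10.7 FPKM at 0 h. The libraries did not overlap, and the difference was -1.40 ± 0.20 on the log2 scale (SE, limma adjusted p = 0.00464). The degron acts on the protein, so this RNA does not check the labels. In whole-cell polyadenylated RNA of the same line at 4 h, measured in a separate experiment, Exosc2 differed by -0.44 ± 0.22 and was not called (limma adjusted p = 0.192). In a fractionation experiment it differed by 0.003 ± 0.13 in chromatin-bound insoluble RNA and by -0.04 ± 0.13 in cytosolic RNA, neither called. Exosc2 is absent from the list above of genes that stayed called in the mesh without 4 h replicate 1.

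The largest rise on the log2 scale was in Prrg4, which encodes a membrane protein with a vitamin K-dependent Gla domain. It had 26.6 and 29.0 FPKM at 4 h, against 0.848 and 0.859 FPKM at 0 h. With both 0 h values under 1 FPKM, it passed the filter through IAA-treated libraries only. Its mean was 32.5-fold higher at 4 h, and the log2 difference was 3.95 ± 0.19 (limma adjusted p = 8.13e-05). Whole-cell polyadenylated RNA of Prrg4 also rose, to 18.4 and 18.8 FPKM at 4 h, against 5.79 and 6.71 FPKM at 0 h.

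**Figure D1:**
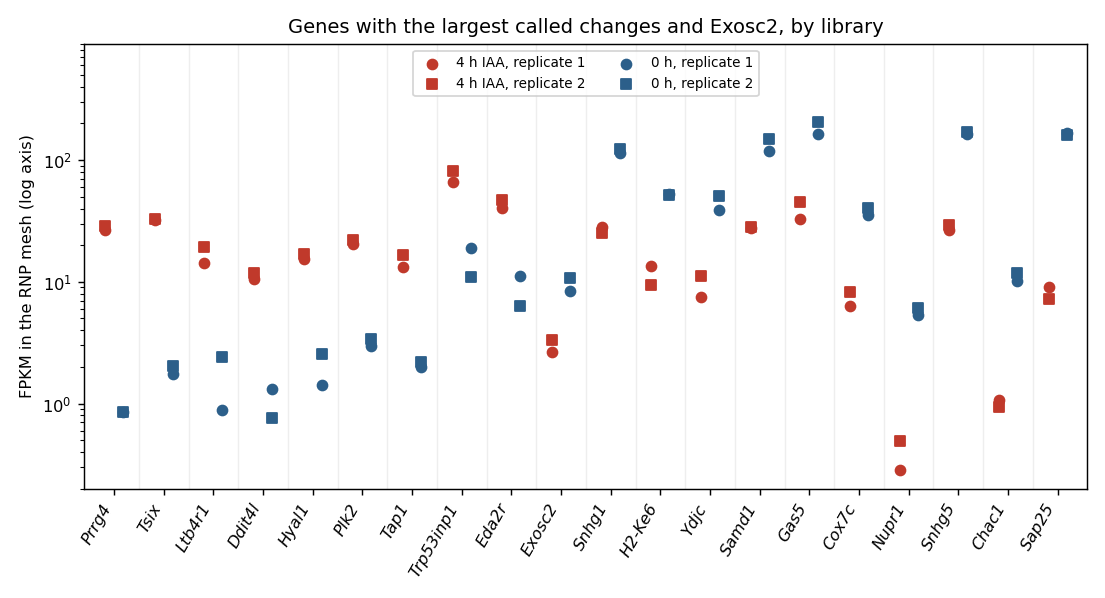
FPKM in each RNP mesh library on a log axis for 20 genes, with 4 h IAA in red to the left of 0 h in blue and the replicates as circles and squares. For each gene both 4 h libraries lie on the same side of both 0 h libraries, from Prrg4 at 26.6 and 29.0 FPKM against 0.848 and 0.859 FPKM to Sap25 at 9.01 and 7.24 FPKM against 167 and 162 FPKM. All genes but Exosc2 were chosen among those whose times did not overlap.

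Further large rises were in Ltb4r1, Ddit4l, Hyal1 and Tap1. Ltb4r1, a leukotriene receptor, had 14.3 and 19.3 FPKM at 4 h, against 0.883 and 2.42 FPKM at 0 h. Ddit4l, a relative of the mTORC1 inhibitor Ddit4, had 10.5 and 11.9 FPKM at 4 h, against 1.32 and 0.759 FPKM at 0 h. Hyal1, a lysosomal hyaluronidase, had 15.5 and 16.9 FPKM at 4 h, against 1.42 and 2.56 FPKM at 0 h. Each of these was more than 8-fold higher by group means, with the lowest 4 h library well above the highest 0 h library. A lack of overlap was a condition for naming the largest rises and falls, so it adds no support. Tap1, a subunit of the transporter that carries peptides for MHC class I, had 13.3 and 16.5 FPKM at 4 h, against 1.99 and 2.20 FPKM at 0 h. The log2 differences were 2.80 ± 0.34 for Ltb4r1, 2.59 ± 0.21 for Ddit4l, 2.55 ± 0.24 for Hyal1 and 2.35 ± 0.24 for Tap1. All were also called higher in whole-cell RNA. Eif3s6-ps2 and Ftl2-ps, processed pseudogenes, also rose, but reads of such copies may come from their parent genes.

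Targets of the tumour suppressor p53, a factor that activates genes of cell cycle arrest and cell death, formed the list with the highest median. Of 29 members tested 16 were higher and 3 lower, against 5.49% and 19.1% of all genes, and their median difference was 0.76. Plk2, a polo-like kinase, had 20.5 and 22.0 FPKM at 4 h, against 2.96 and 3.37 FPKM at 0 h (2.42 ± 0.19, limma adjusted p = 0.000854). Trp53inp1, a p53-induced nuclear protein, had 66.2 and 81.7 FPKM at 4 h, against 19.1 and 10.9 FPKM at 0 h. Eda2r, a receptor of the tumour necrosis factor family, had 40.1 and 46.8 FPKM at 4 h, against 11.1 and 6.32 FPKM at 0 h. Btg2, an antiproliferative factor, and Mdm2, the ubiquitin ligase that limits p53, rose by 2.02 ± 0.20 and 1.75 ± 0.21. In all 5 genes the groups were apart, as the rule for the largest rises required of Plk2, Trp53inp1 and Eda2r. The 3 lower members, named after their values were seen, were Plk3, Ddb2 and Bax, at -1.61 ± 0.22, -1.14 ± 0.22 and -1.05 ± 0.25. In whole-cell RNA 22 of 30 members tested were higher and 1 was lower, against 5.26% and 13.5% of all genes there. There Ddb2 differed by 0.28 and Bax by 0.10, neither of them called. Without 4 h replicate 1 the mesh calls in this list came down to 1 higher and 0 lower, and without 4 h replicate 2 to 5 and 1.

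**Figure D2:**
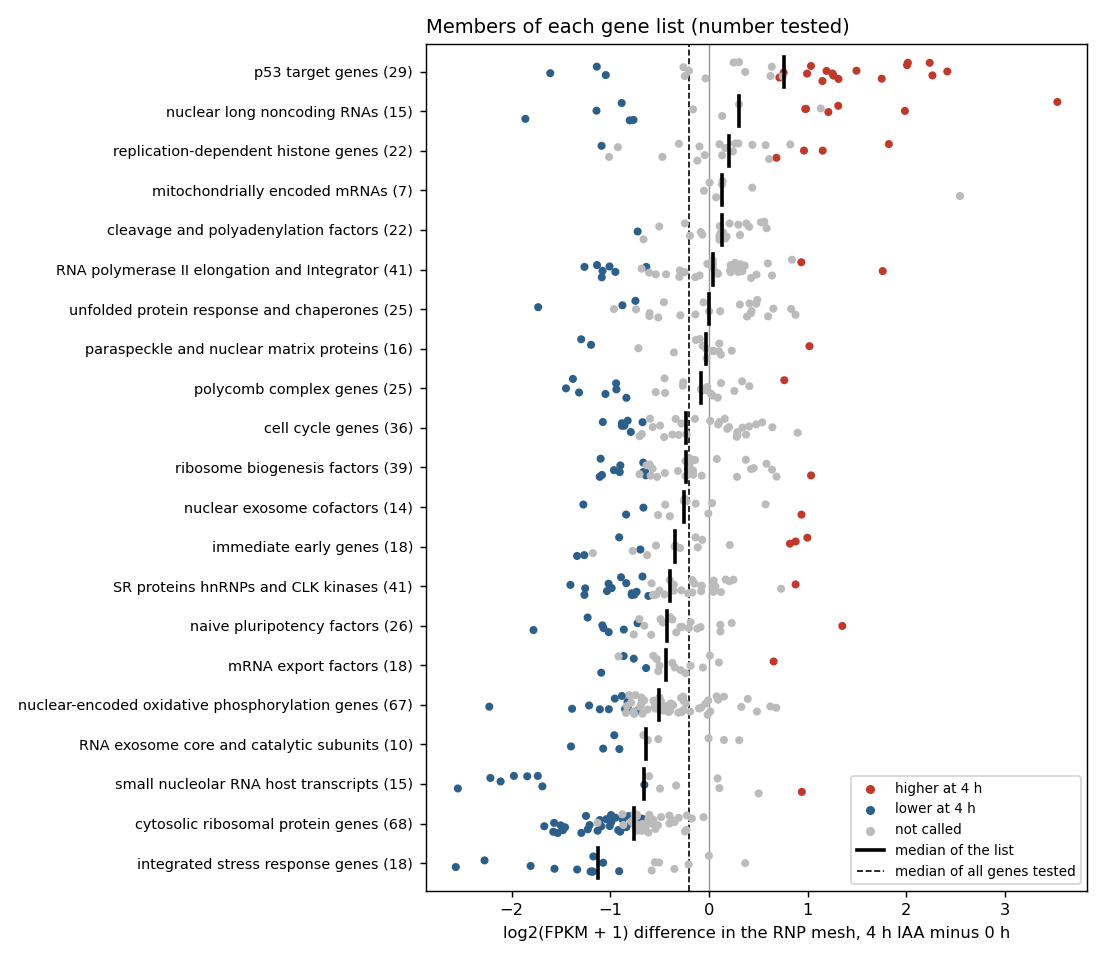
Each point is a member of a gene list, placed by its log2(FPKM + 1) difference in the RNP mesh, 4 h IAA minus 0 h, with calls in red (higher) and blue (lower), list medians as black bars and the median of all genes, -0.20, as a dashed line. The p53 target genes lie highest, with a median of 0.76, and the integrated stress response genes lowest, with a median of -1.12.

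Noncoding classes held larger shares of rises than coding genes did, a difference that was not tested. Of 246 lincRNAs (long intergenic noncoding RNAs) 57 (23.2%) were higher and 21 (8.54%) lower, and of 184 antisense RNAs 50 (27.2%) were higher and 11 (5.98%) lower. Among the 148 unverified gene models of the class TEC, 48 (32.4%) were higher and 8 (5.41%) lower. Of 11038 protein-coding genes 419 (3.80%) were higher and 2205 (20.0%) lower. The median differences were 0.30, 0.33, 0.43 and -0.23 in that order of classes. Before the filter on low values the classes held 5235, 2701, 3069 and 21807 genes, in the same order. A gene under 1 FPKM in both 0 h libraries passed the filter only through IAA-treated libraries. The part of this in the shares of rises was not tested. With rescaled libraries, an alternative added after seeing the data, coding genes counted 1166 higher and 1049 lower, while lincRNAs counted 62 and 9.

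**Figure D3:**
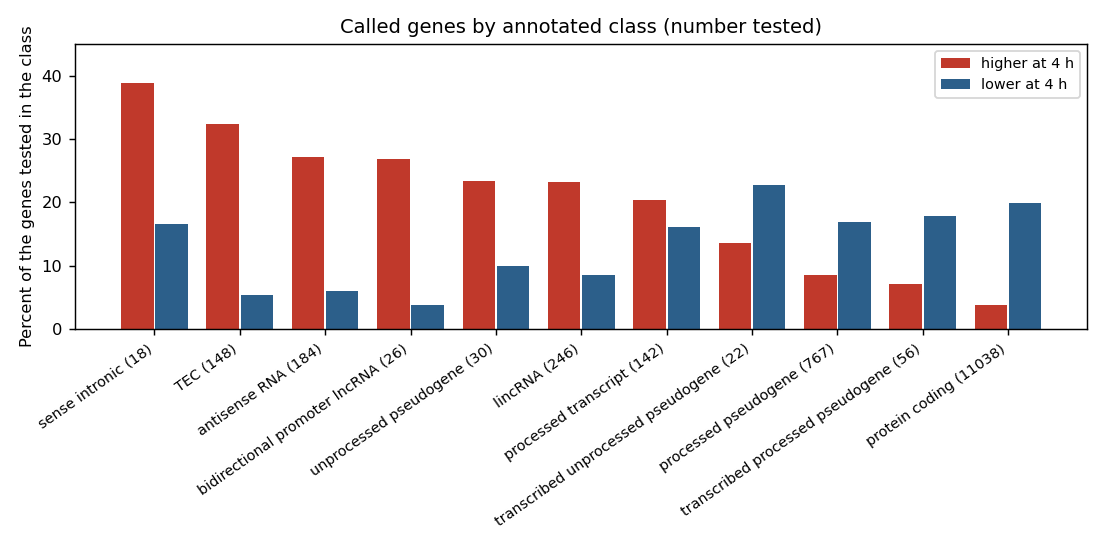
Percent of tested genes called higher (red) or lower (blue) in the RNP mesh at 4 h, by annotated class, with the number tested in brackets. TEC models reach 32.4% higher and 5.41% lower, and protein-coding genes 3.80% higher and 20.0% lower.

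Among single noncoding genes the TEC model Gm37795 on chr4:150068539-150070997 (mm10) had 82.5 and 96.1 FPKM at 4 h, against 5.66 and 6.73 FPKM at 0 h. It rose by 3.65 ± 0.21 (limma adjusted p = 0.000117), and by 3.23 ± 0.16 in whole-cell RNA. The lincRNA AC158987.1 on chr9:78520546-78522157 had 8.97 and 8.61 FPKM at 4 h, against 0 and 0.591 FPKM at 0 h. The lincRNA 2810405F17Rik had 6.92 and 6.86 FPKM at 4 h, against 0.816 and 0.139 FPKM at 0 h. Both lincRNAs were under 1 FPKM in both 0 h libraries, so they passed the filter through IAA-treated libraries only. No function is given for these models in the sources used here.

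The list of nuclear long noncoding RNAs divided. Of 15 members tested 6 were higher (Tsix, Platr4, Kcnq1ot1, Tug1, Dleu2 and Neat1) and 5 lower (Meg3, Platr10, Firre, Mirg and Rian). Kcnq1ot1, at 0.068 and 0.135 FPKM at 0 h, passed the filter through IAA-treated libraries only. The median of the list was 0.31. Of all genes 5.49% were higher and 19.1% lower, and of lincRNAs 23.2% and 8.54%. Tsix, the antisense RNA that restrains Xist on the X chromosome, had 32.3 and 32.8 FPKM at 4 h, against 1.76 and 2.04 FPKM at 0 h (3.53 ± 0.19, limma adjusted p = 8.68e-05). Tsix lies at chrX:103431517-103484957 and overlaps Xist on the other strand. The libraries were directional, and the sources used here do not say whether strand entered the counting. Xist stayed at or below 0.164 FPKM in all 4 libraries. Platr4, a pluripotency-associated transcript, had 8.40 and 8.49 FPKM at 4 h, against 1.70 and 1.10 FPKM at 0 h. Neat1, the scaffold RNA of paraspeckles, was the most abundant of the list at 8487 and 8915 FPKM at 4 h, against 3472 and 4064 FPKM at 0 h (1.21 ± 0.36, limma adjusted p = 0.0380). Malat1, the RNA of nuclear speckles, had 884 and 279 FPKM at 4 h, against 239 and 213 FPKM at 0 h, and its 1.13 ± 0.46 was not called (limma adjusted p = 0.104).

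The falls in this list included 3 transcripts of the imprinted Dlk1-Dio3 region. Meg3 had 233 and 285 FPKM at 4 h, against 668 and 1319 FPKM at 0 h (-1.86 ± 0.36, limma adjusted p = 0.00922). Mirg and Rian, named after their values were seen, differed by -1.14 ± 0.30 and -0.77 ± 0.24. Both 4 h libraries of Meg3 lay below both 0 h libraries, which themselves stood far apart. In whole-cell RNA Meg3 had 63.6 and 59.1 FPKM at 4 h, against 50.6 and 51.2 FPKM at 0 h, and was called higher (0.26 ± 0.06, limma adjusted p = 0.0182). With rescaled libraries 6 members were higher and 1 lower, and with no filter on low values 3 were higher and 0 lower. Without 4 h replicate 1, 1 was higher and 0 lower, without 4 h replicate 2, 3 were higher and 0 lower, and without 0 h replicate 2, 4 were higher and 1 lower.

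The host transcripts of snoRNAs, spliced noncoding RNAs whose introns are cut down to snoRNAs, gave the 4 largest falls among well-expressed noncoding genes. Of 15 hosts tested 8 were lower and 1, Snhg4, was higher, with a median of -0.66, beside 19.1% lower and 5.49% higher of all genes. Snhg5 had 26.5 and 29.0 FPKM at 4 h, against 163 and 171 FPKM at 0 h (-2.55 ± 0.20, limma adjusted p = 0.000854). Gas5 had 33.0 and 45.4 FPKM at 4 h, against 164 and 206 FPKM at 0 h (-2.22 ± 0.24, limma adjusted p = 0.00268). In both hosts, and in the next ones, the lowest 0 h library was far above the highest 4 h library. The rule for the largest falls required a lack of overlap in Snhg5, Gas5, Snhg1 and Zfas1.

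Snhg1 had 28.4 and 25.2 FPKM at 4 h, against 115 and 123 FPKM at 0 h. Zfas1 had 15.1 and 13.02 FPKM at 4 h, against 43.3 and 78.1 FPKM at 0 h. Snhg6 had 16.3 and 13.2 FPKM at 4 h, against 55.6 and 54.97 FPKM at 0 h. Their log2 differences were -2.11 ± 0.20, -1.98 ± 0.29 and -1.84 ± 0.21. The other lower members were Snhg12 (-1.74 ± 0.29), Epb41l4aos (-1.69 ± 0.39) and Snhg17 (-0.65 ± 0.21). Gas5 overlaps Zbtb37, at 3.06 and 2.81 FPKM at 4 h and 1.66 and 2.09 FPKM at 0 h, and Zfas1 overlaps Znfx1, at 2.05 and 2.34 FPKM at 4 h and 3.47 and 4.25 FPKM at 0 h. Snhg4 had 82.5 and 76.5 FPKM at 4 h, against 42.5 and 39.3 FPKM at 0 h. Snhg3, with 63.0 and 65.6 FPKM at 4 h and 57.3 and 62.1 FPKM at 0 h, was not called.

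Whole-cell polyadenylated RNA of the hosts gave other values. There 6 of 18 hosts tested were higher and 2 lower, with a median of 0.40. Of all genes in whole cells 5.26% were higher and 13.5% lower, with a median of -0.11. Snhg1 had 97.8 and 107 FPKM at 4 h and 111 and 98.8 FPKM at 0 h in whole cells, and Gas5 had 149 and 174 FPKM at 4 h and 184 and 161 FPKM at 0 h, so the groups overlapped. Snhg5 was lower there too, at 58.8 and 48.5 FPKM at 4 h, against 83.2 and 88.9 FPKM at 0 h (-0.68 ± 0.10, limma adjusted p = 0.00291). In the chromatin-bound insoluble RNA of the fractionation experiment 6 of 17 hosts were higher and 1 lower, with a median of 0.46. Of all genes in that fraction 7.95% were higher and 0.867% lower, with a median of 0.21. The tables were normalized separately, and differences between the mesh and the other tables were not tested. Without 4 h replicate 1 the mesh count of lower hosts was 1, Snhg5, and without 4 h replicate 2 it was 4.

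**Figure D4:**
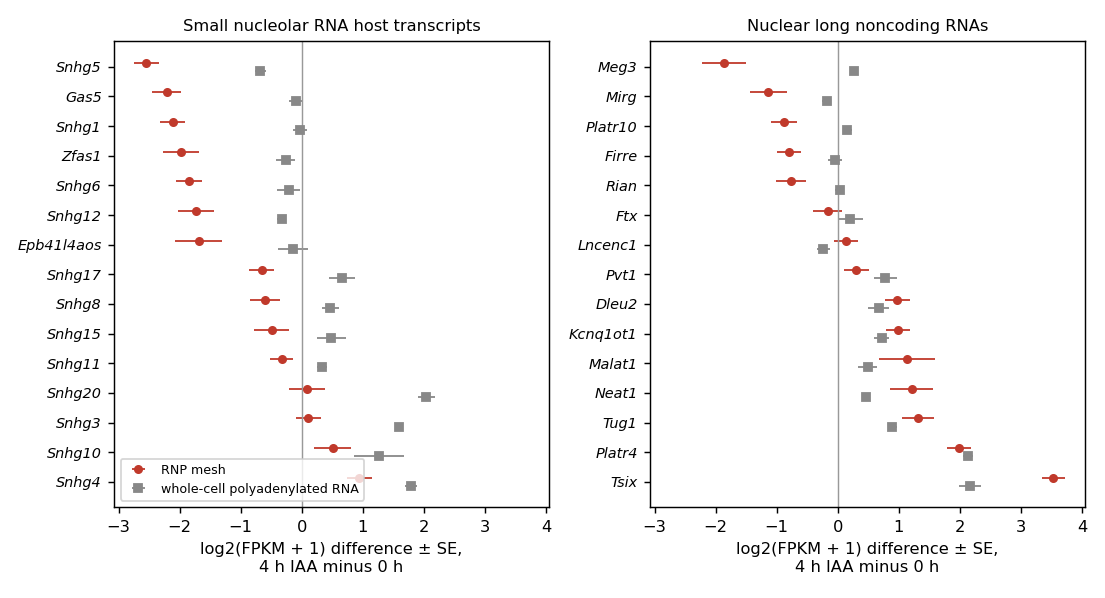
Log2(FPKM + 1) difference with its SE, 4 h IAA minus 0 h, for snoRNA host transcripts (left) and nuclear long noncoding RNAs (right), in the RNP mesh (red circles) and in whole-cell polyadenylated RNA (grey squares). Snhg5, Gas5 and Snhg1 lie at -2.55, -2.22 and -2.11 in the mesh, against -0.68, -0.10 and -0.03 in whole cells, and Tsix at 3.53 in the mesh, against 2.17 in whole cells.

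Many snoRNA hosts belong to the class of transcripts that begin with a C followed by a run of pyrimidines, a start shared with messenger RNAs of ribosomal proteins. The bases around the annotated starts are shown because they let hosts that fell be set beside hosts that were not called. RefSeq sequences on GRCm38.p6 (mm10) matched 12 of the 15 hosts, and each line runs 5' to 3' from 20 bases before the start to 20 bases from it on. Capitals mark a C followed by at least 4 letters that are each C or T, searched on the transcribed strand and beginning within 10 bases of the start. The lines give Snhg5 (chr9:88522878-88522917, minus strand), Gas5 at the second of its annotated starts (chr1:161035146-161035185, plus), Snhg12 (chr4:132308658-132308697, plus) and Snhg1 (chr19:8723467-8723506, plus), which fell. They end with Snhg8 (chr3:123508317-123508356, minus) and Snhg3 (chr4:132353667-132353706, minus), which were not called.
Snhg5: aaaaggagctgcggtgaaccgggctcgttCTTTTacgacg
Gas5: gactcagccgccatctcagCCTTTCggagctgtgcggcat
Snhg12: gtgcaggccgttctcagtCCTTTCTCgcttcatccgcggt
Snhg1: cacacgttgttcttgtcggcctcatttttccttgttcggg
Snhg8: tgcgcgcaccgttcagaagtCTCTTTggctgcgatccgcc
Snhg3: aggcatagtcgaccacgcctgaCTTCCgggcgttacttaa

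The other annotated start of Gas5 holds no such run. Such a run was present at 3 of the 6 matched hosts that fell and at 6 of the 12 matched hosts in all. It was present at 37% of 1786 matched genes called lower, 37.8% of 373 called higher and 36.8% of 6829 not called, and at 34.4% of all 27025 genes in the promoter table. On the opposite strand it was present at 38.5% of all genes. Higher, lower and uncalled genes thus held the run at shares of 36.8% to 37.8%, and a match is a description of these letters only.

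On the log2(FPKM + 1) scale the largest fall among coding genes was in Sap25, a subunit of the Sin3 histone deacetylase complex, at chr5:137641334-137642902. It had 9.01 and 7.24 FPKM at 4 h, against 167 and 162 FPKM at 0 h, so its mean was 20.3-fold lower at 4 h (-4.19 ± 0.21, limma adjusted p = 8.13e-05). In the whole-cell table, which was normalized separately, it had 16.5 and 9.90 FPKM at 4 h and 13.03 and 17.7 FPKM at 0 h, and the groups overlapped. Sap25 shares its position with the read-through model Gm20605, which had 103 and 125 FPKM in the mesh at 4 h and 125 and 174 FPKM at 0 h and was not called. The sources used here do not say how reads were divided between the overlapping models.

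Several further falls were in genes whose whole-cell RNA was not called. Cox7c, a small subunit of cytochrome c oxidase, had 6.35 and 8.29 FPKM at 4 h, against 35.1 and 40.6 FPKM at 0 h. Samd1, a protein that binds unmethylated CpG islands, had 27.7 and 28.3 FPKM at 4 h, against 119 and 149 FPKM at 0 h. H2-Ke6, an oxidoreductase of mitochondrial fatty acid synthesis, had 13.4 and 9.42 FPKM at 4 h, against 52.4 and 51.9 FPKM at 0 h. These genes, picked as largest falls with no overlap between times, fell by 2.23 ± 0.21, 2.21 ± 0.21 and 2.12 ± 0.22 on the log2 scale. Their whole-cell differences were 0.08 ± 0.18, -0.36 ± 0.14 and -0.16 ± 0.19. Gm20427, a model that overlaps H2-Ke6, fell as well, by 1.80 ± 0.25. Insl3, a peptide hormone gene inside the span of Jak3, had 1.66 and 0.445 FPKM at 4 h, against 21.9 and 25.9 FPKM at 0 h (-3.66 ± 0.73), a 22.6-fold lower mean at 4 h. The estimate for Insl3 in another mesh library was vanishingly small although not 0, and its call ended under 5 alternatives.

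Messenger RNAs of cytosolic ribosomal proteins had the median furthest below that of all genes after the stress genes described next. Of 68 tested, 33 were lower and 0 higher by limma (50 and 0 at an unadjusted p under 0.05). All 68 differences were negative, and the median was -0.76. Of the shortest quintile of coding genes by span, described below, 36.5% were lower, with a median of -0.56. Rps13 had 1.15 and 0.866 FPKM at 4 h, against 5.14 and 4.48 FPKM at 0 h. Rpl31 had 15.5 and 19.5 FPKM at 4 h, against 44.4 and 55.5 FPKM at 0 h. Among abundant members, Rpl41, named after its values were seen, had 211 and 205 FPKM at 4 h, against 530 and 451 FPKM at 0 h. The groups were apart for each of the 3. In whole-cell RNA 2 of 80 members tested were lower, 0 were higher, and the median was -0.02. Of all genes there 13.5% were lower and 5.26% higher, with a median of -0.11. In the chromatin-bound insoluble RNA 0 of 79 were lower and 0 higher, and the median was 0.55. Of all genes in that fraction 0.867% were lower and 7.95% higher, with a median of 0.21. The genes have many processed pseudogenes, and the sources used here do not say how shared reads were assigned. With no filter on low values 5 members were lower, and with short RNAs left out of the library total 17 were. With rescaled libraries 14 were lower, without 4 h replicate 1 none was, without 4 h replicate 2, 7 were, and without 0 h replicate 1 and 2, 21 and 17 were.

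Of 67 nuclear genes of oxidative phosphorylation 13 were lower and 0 higher by limma, with a median of -0.50. That share is close to the 19.1% of all genes that were lower. At an unadjusted p under 0.05 the counts were 28 lower and 2 higher, and with rescaled libraries 6 were lower and 4 higher. Lower calls numbered 2 with no filter, 0 without 4 h replicate 1 and 2 without 4 h replicate 2. Besides Cox7c, the smallest p-values were those of Ndufa5, Sdhb and Cox7a2, at -1.39 ± 0.28, -0.96 ± 0.21 and -1.22 ± 0.27. Of 7 mitochondrially encoded mRNAs tested limma called 0, also at an unadjusted p under 0.05, and their median was 0.13. Among them mt-Nd6 stood apart in 4 h replicate 1, at 747 FPKM there and 17.7 FPKM in 4 h replicate 2, against 10.6 and 34.3 FPKM at 0 h. Replication-dependent histone genes, whose mRNAs normally end without a poly(A) tail, counted 4 higher and 1 lower of 22 tested, out of 65 in the table. Of all genes 5.49% were higher and 19.1% lower. With no filter on low values 2 histone genes were higher and 0 lower. Hist1h4k was listed at 0 in both 0 h libraries and had 2.10 and 3.04 FPKM at 4 h, so it passed the filter through IAA-treated libraries only.

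Genes of the integrated stress response, a programme of amino acid supply and protein quality led by the factor Atf4, had the lowest median of the lists, -1.12. Of 18 tested 11 were lower and 0 higher by limma, beside 19.1% and 5.49% of all genes, and 14 and 0 at an unadjusted p under 0.05. Chac1, an enzyme that degrades glutathione, had 1.07 and 0.943 FPKM at 4 h, against 10.1 and 11.7 FPKM at 0 h (-2.57 ± 0.20, limma adjusted p = 0.000854). Nupr1, a small stress-induced nuclear protein, had 0.285 and 0.494 FPKM at 4 h, against 5.35 and 6.09 FPKM at 0 h (-2.28 ± 0.20). Ddit3, the transcription factor also called CHOP, had 1.68 and 1.11 FPKM at 4 h, against 7.10 and 7.59 FPKM at 0 h. Atf4 had 53.3 and 55.2 FPKM at 4 h, against 134 and 198 FPKM at 0 h. The times were apart in all 4 genes, as the rule for the largest falls required of Chac1 and Nupr1. In whole-cell RNA 9 of 19 members were lower and 1 higher, against 13.5% and 5.26% of all genes there. Chac1 differed by -2.45 ± 0.13 in whole cells, and Nupr1 by 0.19 ± 0.23, not called. Rescaled libraries gave 9 lower members, leaving out 4 h replicate 1 gave 2 and leaving out 4 h replicate 2 gave 4.

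Pluripotency factors were examined next. Of 26 factors of the naive state 7 were lower and 1, Nodal, was higher, with a median of -0.43, beside 19.1% and 5.49% of all genes. Lower members numbered 5 with rescaled libraries. Leaving out 4 h replicate 1 left 0 of them, leaving out 4 h replicate 2 left 1 and leaving out 0 h replicate 2 left 4. Klf2 had 12.4 and 15.7 FPKM at 4 h, against 48.4 and 52.5 FPKM at 0 h (-1.78 ± 0.24, limma adjusted p = 0.00422). Zfp42, the marker also called Rex1, had 29.3 and 28.2 FPKM at 4 h, against 64.2 and 73.8 FPKM at 0 h. Nodal, a signal of the transforming growth factor family chosen for mention after its values were seen, had 53.6 and 67.2 FPKM at 4 h, against 24.96 and 21.0 FPKM at 0 h. In whole-cell RNA 18 of 27 of these factors were lower and 1 higher, against 13.5% and 5.26% of all genes there. Of 3 neural progenitor markers tested 1, Neurod1, rose in the mesh, to 13.4 and 12.6 FPKM at 4 h, against 3.28 and 4.07 FPKM at 0 h. The list summed to 19.2 and 20.0 FPKM at 4 h, against 10.2 and 10.5 FPKM at 0 h, and most of that difference was Neurod1. Sox1, not called, had 2.65 and 3.33 FPKM at 4 h, against 4.42 and 3.81 FPKM at 0 h, and Pax6, below the filter, was under 0.4 FPKM in all 4 libraries.

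Genes for the RNA-processing machinery were compared with the same background of 19.1% lower and 5.49% higher. Of 41 SR proteins, hnRNPs and CLK kinases, which act in splicing, 14 were lower and 1 higher. All 4 CLK kinases, which phosphorylate SR proteins, were among the lower. Clk2 had 92.8 and 106 FPKM at 4 h, against 249 and 280 FPKM at 0 h, and Clk4 had 7.45 and 8.45 FPKM at 4 h, against 21.9 and 19.05 FPKM at 0 h. With rescaled libraries 6 of the list were lower and 2 higher. Leaving out 4 h replicate 1 left 0 lower members, leaving out 4 h replicate 2 left 2, and leaving out the 0 h libraries left 8 and 7. Among 10 exosome subunit genes, 4 were lower (Exosc2, Exosc8, Exosc5 and Exosc1) and 0 higher by limma, against 6 and 0 at an unadjusted p under 0.05. With rescaled libraries 4 subunits were lower and 1 higher. The 4 lower subunits named here are absent from the list above of genes that stayed called without 4 h replicate 1. The catalytic subunits Dis3 and Exosc10 differed by 0.31 ± 0.20 and 0.15 ± 0.19, neither called. Of 14 exosome cofactors 3 were lower and 1, Zfc3h1, a subunit of the PAXT connection, was higher, at 0.94 ± 0.24. With rescaled libraries 1 cofactor was lower and 2 were higher, and without either 4 h library limma called 0. Srrt, which links capped RNA to the exosome, had 121 and 139 FPKM at 4 h, against 298 and 334 FPKM at 0 h. Of the RNA polymerase II genes, Polr2a, the largest subunit, had 134 and 166 FPKM at 4 h, against 33.1 and 56.5 FPKM at 0 h (1.76 ± 0.29, limma adjusted p = 0.00610). In whole cells Polr2a had 46.8 and 47.1 FPKM at 4 h and 47.5 and 48.1 FPKM at 0 h.

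The fall of coding genes was ordered by the length of the annotated gene span. Coding genes were divided into quintiles by span, a description added after the data were seen, and 36.5% of the shortest quintile (up to 7.64 kb) were lower, against 3.35% of the longest quintile (from 60.8 kb). The quintiles between had 29.1%, 20.4% and 10.6% lower. Median differences ran in the same order, at -0.56, -0.44, -0.28, -0.10 and 0.10. With rescaled libraries the shortest and longest quintiles had medians of -0.31 and 0.33. Leaving out 1 library at a time gave -0.65 to -0.47 for the shortest and -0.02 to 0.22 for the longest, which was below 0 only without 0 h replicate 2. Whole-cell medians were -0.08, -0.14, -0.17, -0.18 and -0.16 over the same quintiles, and those of the chrRNP fraction, the chromatin-bound insoluble RNA of the fractionation experiment, were 0.35, 0.24, 0.22, 0.16 and 0.07. Lower coding genes had a median span of 10.9 kb, higher ones 28.0 kb and uncalled ones 26.8 kb. Rps13 (2691 bp), Rpl31 (4070 bp), Chac1 (3153 bp), Nupr1 (2428 bp), Ddit3 (5515 bp) and Atf4 (2357 bp) had spans in the range of the shortest quintile. The snoRNA hosts Snhg5 (1880 bp) and Gas5 (3933 bp) did too. Whether the ribosomal protein, stress and host lists fell more than genes of like span was not tested. Fragment size and RNA integrity are not given for these libraries, and their part in this order was not tested. The fractionation libraries may also differ from the mesh in RNA selection, and the part of that was not tested. The histone gene Hist1h4k had 206 and 301 FPKM in chrRNP at 4 h, against 2.10 and 3.04 FPKM in the mesh.

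**Figure D5:**
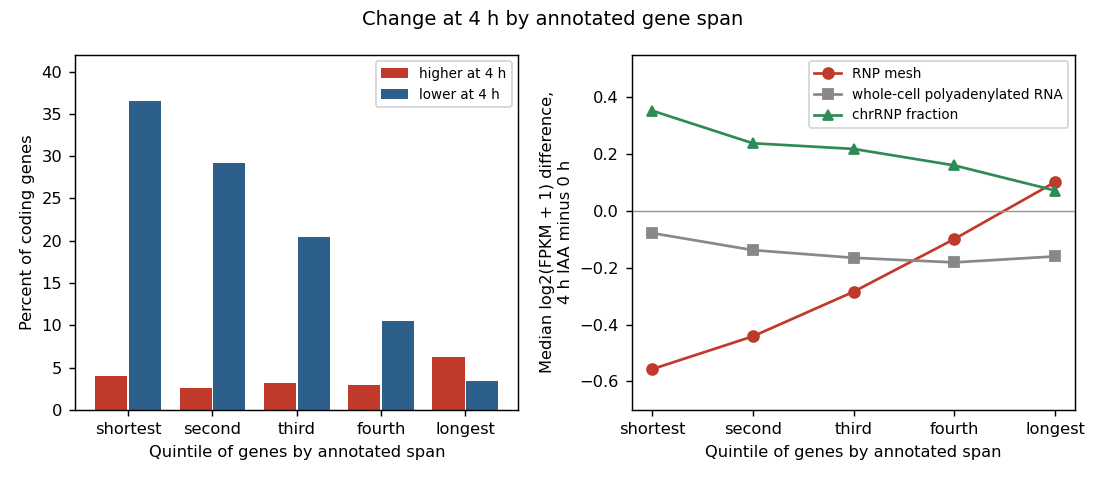
Left: percent of coding genes called higher (red) or lower (blue) in the RNP mesh at 4 h, by quintile of annotated span. Right: median log2(FPKM + 1) difference, 4 h IAA minus 0 h, per quintile in the mesh (red), in whole-cell polyadenylated RNA (grey) and in the chrRNP fraction (green). The mesh medians lie between -0.56 in the shortest and 0.10 in the longest quintile, and the chrRNP medians between 0.35 and 0.07.

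The calls were then set beside those of other 4 h experiments on the same line. Of the 678 mesh rises tested in whole-cell RNA 314 (46.3%) were higher there too, which is 45.1% of the whole-cell rises tested in both, against a background of 5.26% of all whole-cell genes and 4.02% of the 9326 genes not called in the mesh. In the chrRNP fraction 338 of 650 mesh rises (52%) were higher, against a background of 7.95% and 6.60% of the 8874 genes not called in the mesh. Of 2348 mesh falls 477 (20.3%) were lower in whole cells, against 13.5% of all genes there and 16.5% of those not called in the mesh. Higher in whole cells were 8 mesh falls (0.341%), against 5.26% and 4.02%. In chrRNP 19 of 2265 mesh falls (0.839%) were lower, against 0.867% of all genes and 0.541% of those not called in the mesh. Higher in chrRNP were 37 mesh falls (1.63%), against 7.95% and 6.60%. In the cytosol 241 of 650 mesh rises (37.1%) were higher, against 5.04% of all genes and 3.07% of those not called in the mesh. There 65 of 2265 mesh falls (2.87%) were lower, against 1.41% and 1.33%. These experiments used other libraries, and no test was made between tables. Those of the fractions may differ from the mesh in RNA selection as well as in compartment.

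A later mesh time point, 12 h, shares the 0 h libraries with the 4 h comparison, so values are set side by side. Prrg4 had 0.848 and 0.859 FPKM at 0 h, 26.6 and 29.0 FPKM at 4 h and 76.2 and 85.0 FPKM at 12 h. Tsix had 1.76 and 2.04 FPKM at 0 h, 32.3 and 32.8 FPKM at 4 h and 92.3 and 91.3 FPKM at 12 h. Snhg5 had 163 and 171 FPKM at 0 h, 26.5 and 29.0 FPKM at 4 h and 19.8 and 18.2 FPKM at 12 h. Cox7c had 35.1 and 40.6 FPKM at 0 h, 6.35 and 8.29 FPKM at 4 h and 6.77 and 5.95 FPKM at 12 h. Prrg4 and Tsix were thus highest at the last time, while Cox7c overlapped between 4 h and 12 h. At 12 h, 2078 genes (16.3%) were higher and 4024 (31.6%) lower than at 0 h.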

How the data were processed

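Polyadenylated RNA of the RNP mesh was measured in 6 libraries, 2 each at 0, 4 and 12 h of IAA. Values are FPKM as deposited. The authors' tools were TopHat2 2.0.11, Cufflinks 2.0.2 and bedtools, and their builds mm10 and the fly build dm6, per the submitters' processing notes, and the labels' protocols describe a spike-in of fly cells added by cell number. The sources used here do not say whether a spike-in factor or strand was used. The same unit holds for the whole-cell (RAD0, without retinoic acid) and fractionation tables. Read depth is unknown, so no counting intervals are given.

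Values were analysed as log2(FPKM + 1), which understates changes of low genes, for genes of at least 1 FPKM in at least 2 libraries of a table. Group means of all 6 mesh libraries were fitted in 1 model with limma 3.58.1 (trend, moderated) under R 4.3.3 and data.table (1.17.8), and the 4 h minus 0 h contrast was adjusted by Benjamini-Hochberg over 12725 genes at a threshold of 0.05. The other tables were fitted separately in the same way. Figures and sequences used Python 3.11.15, pandas 2.3.3 and matplotlib 3.10.9. The method was tested on simulated data with changes added to 200 of 12725 genes of at least 5 FPKM, for the mesh comparison at 4 h. A log2 change of 1 was recovered for 25% and one of 2 for 75%, with 5 false calls.

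The members, the 21 pathway and 6 marker lists and the tests were chosen with earlier results of these data known. The genes named are Exosc2, the 12 largest called rises and 12 largest called falls with no overlap between times and at least 5 FPKM in the higher mean (clone names and short RNAs passed over), the 4 largest noncoding rises and falls, and the 4 smallest p-values of each list. Part of them is printed. Other named list members, such as those given to spell out a count, were chosen after their values were seen. Gene identifiers matched an entry of the symbol table for 50148 of 52885 genes. Alternatives changed the pseudocount to 0.1, dropped the filter, rescaled the libraries, or used library totals without short RNAs, the replicate number as a block, no trend, or the 0 and 4 h libraries alone, and left out each library in turn. Sequences are RefSeq promoter records. Replicate numbers did not pair the libraries.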

Additional observations from a re-analysis of the deposited data

Results flagged for a closer look

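Meg3 differed in direction between the RNP mesh and whole-cell polyadenylated RNA. In the mesh it was lower at 4 h, at -1.86 ± 0.36 on the log2 scale, and both 4 h libraries lay below both 0 h libraries. In whole cells it was higher, at 0.26 ± 0.06, with both 4 h libraries above both 0 h libraries. The difference between the 2 changes was not tested, since the tables were normalized separately. The mesh call ended without a filter on low values and without either 4 h library.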

How the results depend on the processing

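With a pseudocount of 0.1, no trend, or the 0 and 4 h libraries alone, the counts of higher and lower genes stayed within 1.5 times those reported. Rescaled libraries gave 1518 higher and 1153 lower genes, and leaving short RNAs out of the library total gave 1131 and 1373, with the median of all genes at 0.04 and -0.02. With no filter on low values 289 were higher and 860 lower among the larger number of genes tested. Leaving out 1 library at a time gave 14 to 801 higher and 10 to 1994 lower genes, with the lowest counts without 4 h replicate 1, where the remaining 4 h library is assumed to vary like the other groups. The cause was not tested. Replicate numbers did not pair the libraries: deviations from the group means correlated at -0.08 between 0 h and 4 h. With the replicate number as a block 641 genes were higher and 2143 lower.

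Of the 96 called genes that the naming rule gave, the call ended for 84 on leaving out 4 h replicate 1 and for 51 on leaving out 4 h replicate 2. Leaving out the 0 h libraries ended 8 (replicate 1) and 19 (replicate 2) of the calls. It ended for 25 with no filter, 11 with rescaled libraries, 8 with short RNAs left out and 5 with the block. None of these 96 called genes changed sign. In the simulated data, with changes in 200 of 12725 genes, a log2 change of 1 was recovered for 25%. Far more genes were called in the mesh comparison, so that share need not hold for it. With 2 libraries per time and unknown depth, real changes may still be missed.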

Other observations

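Of all genes tested in the mesh at 4 h, 19.1% were lower and 5.49% higher, which is the background for each list below. Of 25 polycomb complex genes 7 were lower and 1, Pcgf3, was higher (5 and 2 with rescaled libraries). Ring1, the ubiquitin ligase of polycomb repressive complex 1, had 3.73 and 4.38 FPKM at 4 h, against 10.5 and 15.6 FPKM at 0 h. Of 36 cell cycle genes 7 were lower and limma called 0 higher (11 and 3 at an unadjusted p under 0.05), close to the background, while rescaled libraries gave 4 lower and 7 higher. E2f1, an activator of genes for DNA synthesis, had 8.14 and 9.83 FPKM at 4 h, against 18.9 and 21.2 FPKM at 0 h. Of 39 ribosome biogenesis factors 10 were lower and 1 higher, but 4 and 7 with rescaled libraries and 4 and 4 with short RNAs left out. Nucleostemin, Gnl3, had 57.2 and 65.9 FPKM at 4 h, against 137 and 128 FPKM at 0 h. Of 41 genes of RNA polymerase II elongation and the Integrator complex 7 were lower and 2 higher, near the background, but 2 and 8 with rescaled libraries. The 2 higher ones were Polr2a and Polr2b, and Polr2b, named after its values were seen, had 46.6 and 55.1 FPKM at 4 h, against 32.3 and 20.9 FPKM at 0 h.

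Immediate early genes, which respond first to growth factor signals, divided, with 3 of 18 higher and 4 lower (3 and 3 with rescaled libraries). Ier2 had 33.9 and 34.6 FPKM at 4 h, against 74.2 and 105 FPKM at 0 h, and Btg1 had 7.29 and 7.67 FPKM at 4 h, against 3.52 and 4.09 FPKM at 0 h. Of 18 mRNA export factors 4 were lower and 1 higher (1 and 1 with rescaled libraries), and of 22 cleavage and polyadenylation factors 1, Cpsf4, was lower and limma called 0 higher (3 and 2 at an unadjusted p under 0.05), whereas rescaled libraries gave 0 lower and 6 higher. Of 16 paraspeckle and nuclear matrix genes 2 were lower and 1 higher (1 and 1 with rescaled libraries): Lmnb2, a lamin, had 14.3 and 18.6 FPKM at 4 h, against 36.1 and 47.7 FPKM at 0 h, and Tpr, a protein of the nuclear pore basket, had 97.4 and 112 FPKM at 4 h, against 57.6 and 45.3 FPKM at 0 h. Of 25 unfolded protein response and chaperone genes 3 were lower and limma called 0 higher (6 and 2 at an unadjusted p under 0.05), a share below the background, and rescaled libraries gave 1 lower and 5 higher. Herpud1, a factor of protein degradation at the endoplasmic reticulum, had 4.84 and 5.95 FPKM at 4 h, against 21.4 and 18.97 FPKM at 0 h. Without 4 h replicate 1 none of these lists had a called member.

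Markers of cell types other than stem cells were low apart from a few genes. Summed over their lists, primitive endoderm markers had 29.5 and 33.6 FPKM at 4 h and 26.2 and 23.0 FPKM at 0 h, and trophoblast markers had 5.84 and 8.60 FPKM at 4 h and 7.81 and 9.84 FPKM at 0 h. Mesoderm markers had 1.82 and 2.86 FPKM at 4 h and 2.08 and 3.88 FPKM at 0 h. By limma 0 of 3, 0 of 4 and 0 of 2 tested members were called, and 0 of 4 fibroblast markers (at an unadjusted p under 0.05, 2, 0, 0 and 0).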
